A study of Danio rerio with 5 samples.

Results

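Cytochrome P450 enzymes are heme proteins that insert an oxygen atom into small lipophilic molecules, using electrons passed on by reductases, cytochrome b5 or ferredoxins. Families 1 to 3 act largely on foreign chemicals and fatty acids, whereas other families make or break single hormones and signals, among them steroids, bile acids, vitamin D and retinoic acid. In the embryo the best studied members are the family 26 enzymes, which break down retinoic acid and so shape its gradients, and the side-chain cleavage enzyme Cyp11a1, which starts steroid synthesis.

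Cytochrome P450 genes were taken as all genes whose RefSeq symbol begins with cyp and a digit. Of these, 65 genes with 138 probes were on the array, and 44 genes with 78 probes were well above background on all arrays of 1 group or both. The gene cyp2aa8 was left out of the comparison because its only probe had a non-uniform spot on 1 array, and its values are given separately. The compared P450 genes therefore numbered 43, out of 10792 genes in all. They cover 13 family numbers, and 41 of the 43 were well above background on all 5 arrays.

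The samples were whole zebrafish (Danio rerio) embryos at 14 h post fertilization. The gata5/6 morpholino group (2 arrays) had been given, at the 1-cell stage, 1 nl holding 6.25 ng of morpholino against gata5 and 1.25 ng against gata6, and the control group (3 arrays) had been given 7.5 ng of control morpholino. Morpholinos, synthetic oligonucleotides, bind an RNA and keep it from being translated or spliced, so this is a knockdown and not a deletion, and the labels name no strain, no clutch and no number of embryos per sample. The comparison asked which genes change when the heart and gut transcription factors Gata4, Gata5 and Gata6 are reduced together, since the pair of morpholinos is reported in the labels to lower gata4 as well.

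Agilent 1-colour arrays read the total RNA of each sample, and each value below is the log2 of a gene's signal minus the log2 of the 75th percentile of signals on its array. A value of 0 thus means a signal equal to that percentile, and levels of different genes cannot be set against each other because each probe binds its target with its own strength. On each array 70.1% to 71.1% of probes were well above background, and precision is limited by how few arrays there are. The arrays of the gata5/6 morpholino group lay on slide 2 and scan 2 and those of the control group on slide 1 and scan 1, so slide and group cannot be told apart. The 2 gata5/6 morpholino arrays also differed more from each other, with a median SD per gene of 0.170 against 0.0654 in controls. Since nothing says that replicates came from separate clutches, p-values speak only of how far these samples scatter, and that scatter may be technical. In RNA of whole embryos, fewer cells of a type and less RNA per cell cannot be told apart. Of the Gata factor genes, gata4, against which no morpholino was given, fell (limma adjusted p = 0.00520), at -1.96 ± 0.05 (SD, n = 2) against -1.32 ± 0.03 (SD, n = 3) in controls. The targeted genes gata5 and gata6 rose 3.95-fold and 7.21-fold (limma adjusted p = 0.000191 and 5.76e-05). A morpholino that blocks translation need not lower its target RNA, so the gata5 and gata6 signals do not check the knockdown.

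Among the 43 P450 genes compared, 6 were higher and 6 lower in gata5/6 morpholino embryos (limma, Benjamini-Hochberg adjusted p under 0.05 over all genes), and 31 did not pass. Over all 10792 genes, 7.84% were higher and 7.17% lower, which together make 15% of genes, beside 14% and 14% of the P450 genes. Later counts for a family, list or marker set are to be read beside these shares of all genes. No such set was tested as a whole. Changes of at least 2-fold that passed were seen for 5 P450 genes, or 11.6%, beside 4.7% of all genes. Among the higher genes and these 5 is cyp2ad2, which met the detection rule through the gata5/6 morpholino arrays alone, so that rule favoured its direction. The shares of all genes include genes admitted in the same way. The median log2 change was 0.03 for the P450 genes and 0.04 for all genes, and the calls lay on both sides. The groups did not overlap for 18 P450 genes (41.9%), beside 50.9% of all genes. Without control replicate 1, 2 or 3 the counts were 3 higher and 4 lower, and without gata5/6 morpholino replicate 2 they were 9 and 7. Wherever a gata5/6 morpholino array is left out, 1 remains, and its p-values assume that it varies like the controls, whose spread is the smaller. With a separate variance for each group, 3 were higher and 3 lower. The 6 genes that kept their calls under that setting were cyp1c1, cyp2ad2, cyp2aa9, cyp2p6, cyp11a1.1 and cyp46a1.1.

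**Figure D1:**
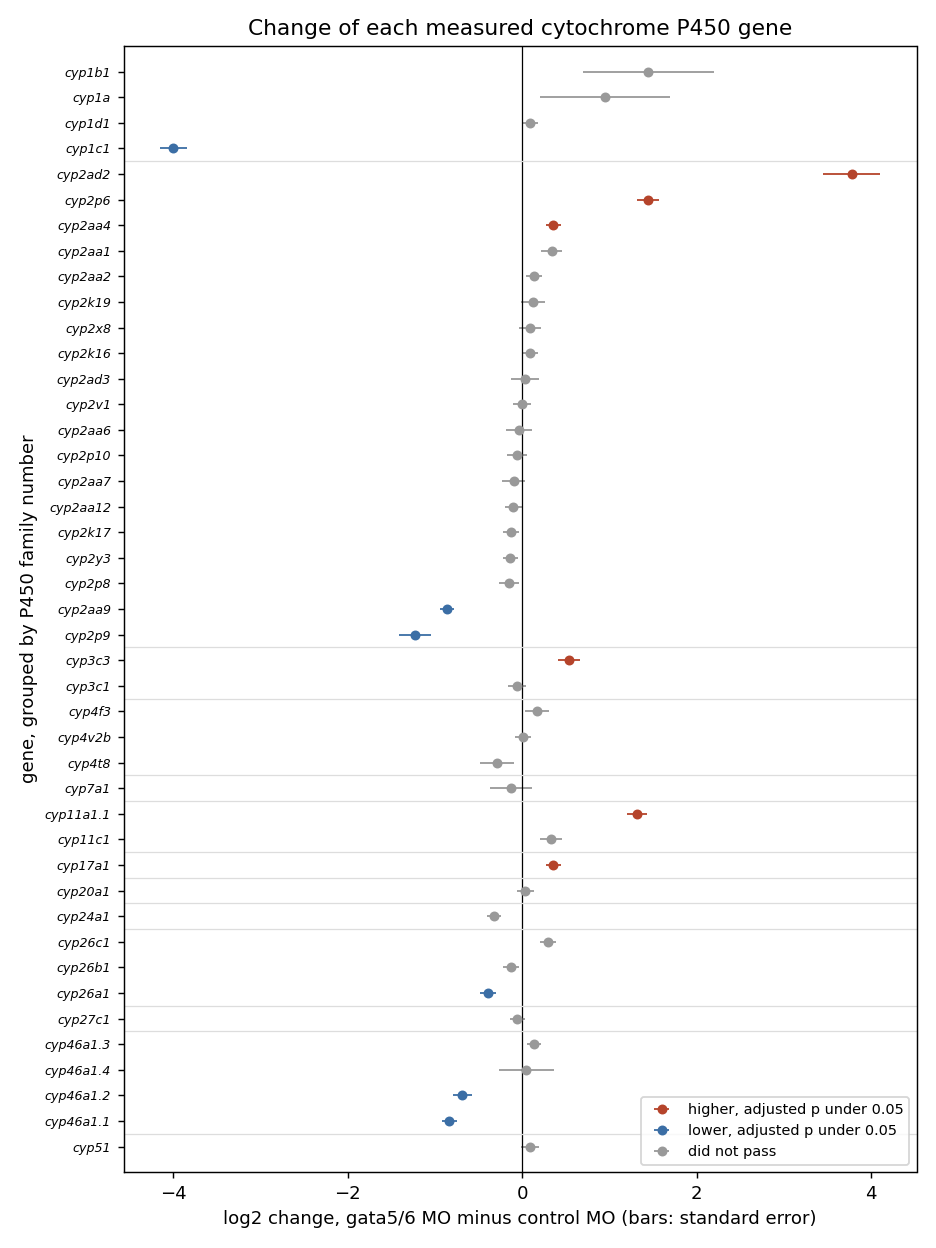
Log2 change (gata5/6 morpholino minus control, horizontal axis) of the 43 compared P450 genes, grouped by family number from top to bottom, with standard errors as bars. The 6 higher genes are red, the 6 lower genes are blue and the 31 others are grey, and the plotted values end at -4.00 for cyp1c1 and 3.78 for cyp2ad2, the last as fitted against controls below the detection rule.

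**Figure D2:**
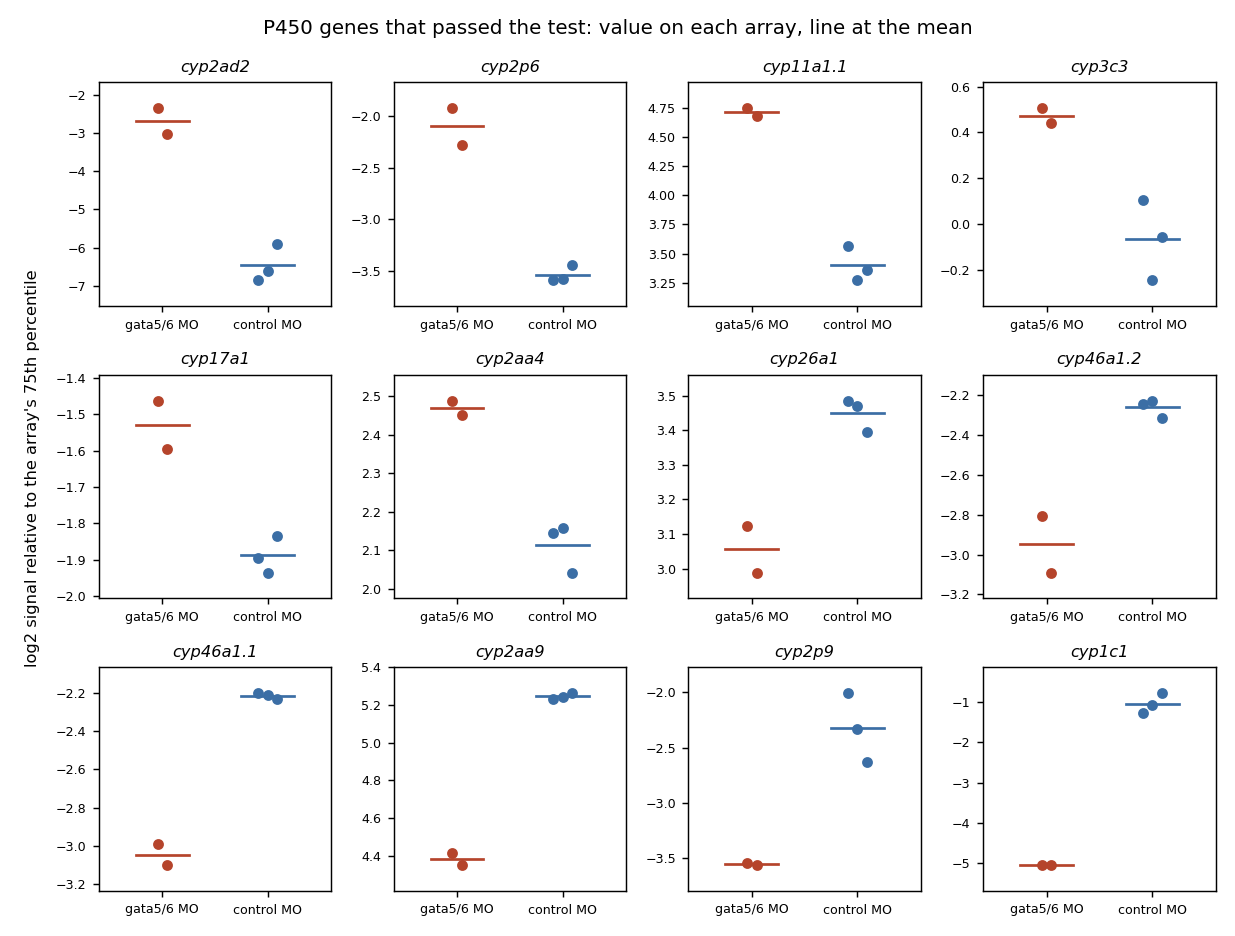
Log2 signal relative to the 75th percentile of the array (vertical axes, scaled for each gene) of the 12 P450 genes that passed, with 1 point for each array, the 2 gata5/6 morpholino arrays on the left and the 3 control arrays on the right, and a line at the mean. No group overlaps the other in any of the 12 panels, but the genes were chosen by the test on these same values. All 3 control points of cyp2ad2 lie below the detection rule.

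Family 1 holds enzymes that oxidise aromatic chemicals, and in zebrafish cyp1a, cyp1b1, cyp1c1 and cyp1c2 are known targets of the aryl hydrocarbon receptor (Ahr), a factor that such chemicals activate. Of its 4 compared genes, 1 fell and 3 did not pass, and their changes ranged from -4.00 to 1.45. The gene that fell was cyp1c1, with log2 signals of -5.03 and -5.05 on the gata5/6 morpholino arrays, against -1.28, -1.07 and -0.77 on the control arrays. Every control array was thus far above both gata5/6 morpholino arrays, a 16.0-fold difference (log2 change -4.00, SE 0.156, limma adjusted p = 0.000103). The other compared probe of cyp1c1 gave -4.20, and that probe was below the detection rule on both gata5/6 morpholino arrays. With normexp background correction in which outlying local backgrounds were replaced, a setting chosen after seeing the data, the change was -1.99 (adjusted p = 2.44e-05). That setting adds 50 intensity units to every spot, which by construction shrinks changes of dim probes. Without that replacement, default normexp correction gave -2.05 (limma adjusted p = 0.0374). Of the 12 P450 calls it kept this 1 and lost 11. The paralog cyp1c2 lay just outside the detection rule, being well above background on 2 of 3 control arrays and on no gata5/6 morpholino array. Its brighter probe had -7.01 and -6.87 after gata5/6 morpholino and -5.60, -5.45 and -4.99 in controls, which are given without a test. Just inside the rule lay the cholesterol hydroxylase-like gene cyp46a1.4, above background on 1 of 2 gata5/6 morpholino arrays and on all 3 control arrays.

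The other family 1 genes did not pass. The gene cyp1a, the usual readout of Ahr activity, had 0.14 and 2.20 in gata5/6 morpholino embryos, against 0.76, 0.76 and -0.86 in controls. Gata5/6 morpholino replicate 2 was the highest array and control replicate 3 the lowest, and gata5/6 morpholino replicate 1 lay between the controls. The gene cyp1b1, which encodes a further Ahr-induced enzyme, had -3.51 and -1.21 after gata5/6 morpholino and -3.43, -3.25 and -4.74 in controls, with the same arrays at the top and bottom. Neither passed the test (cyp1a 0.95, SE 0.744, limma adjusted p = 0.421, and cyp1b1 1.45, SE 0.752, adjusted p = 0.246). Without gata5/6 morpholino replicate 2 the cyp1a change was -0.08. All 3 probes of cyp1a had gata5/6 morpholino replicate 2 highest and control replicate 3 lowest.

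The spread of both genes within a group was among the widest measured. Between the 2 gata5/6 morpholino arrays cyp1a differed by 2.06 and cyp1b1 by 2.30, and only 16 and 11 of the 10792 genes differed more. Among the 3 control arrays the ranges were 1.62 and 1.49, exceeded by 22 and 27 genes. The ranges of cyp1c1 were 0.01 between gata5/6 morpholino arrays and 0.50 among controls, and those of cyp1d1, a family member not induced by the usual Ahr ligands in zebrafish, were 0.04 and 0.16. The cyp1d1 level was -0.19 ± 0.03 (SD, n = 2) against -0.28 ± 0.08 (SD, n = 3) for control embryos, which differ by 0.09 (limma adjusted p = 0.533).

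Of 12 listed genes of the Ahr pathway and other chemical sensors, 9 were measured and none passed (limma, with none at an unadjusted p under 0.05 either). The median change was -0.06, within a range of -0.57 to 0.41. The receptor gene ahr2 had -2.20 and -1.19 after gata5/6 morpholino and -1.14, -0.86 and -1.37 in controls (log2 change -0.57, limma adjusted p = 0.264). Its partner gene arnt changed by -0.31 (adjusted p = 0.291), the pregnane X receptor gene nr1i2 by -0.21 (adjusted p = 0.185) and the Ahr target tiparp, which encodes a polymerase that restrains the receptor, by 0.29 (adjusted p = 0.194). The Ahr repressor gene ahrra, chosen after its values were seen, had -3.75 and -2.73 after gata5/6 morpholino and -3.61, -3.39 and -3.97 in controls. For ahrra and tiparp, as for cyp1a and cyp1b1, gata5/6 morpholino replicate 2 was the highest array and control replicate 3 the lowest. These were 2 of the 9 measured genes of the list with that order. For nqo1, a detoxifying reductase gene chosen after its values were seen, gata5/6 morpholino replicate 2 was the lowest array. Its values were 3.05 and 2.81 after gata5/6 morpholino, against 3.06, 3.00 and 2.93 in controls.

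**Figure D3:**
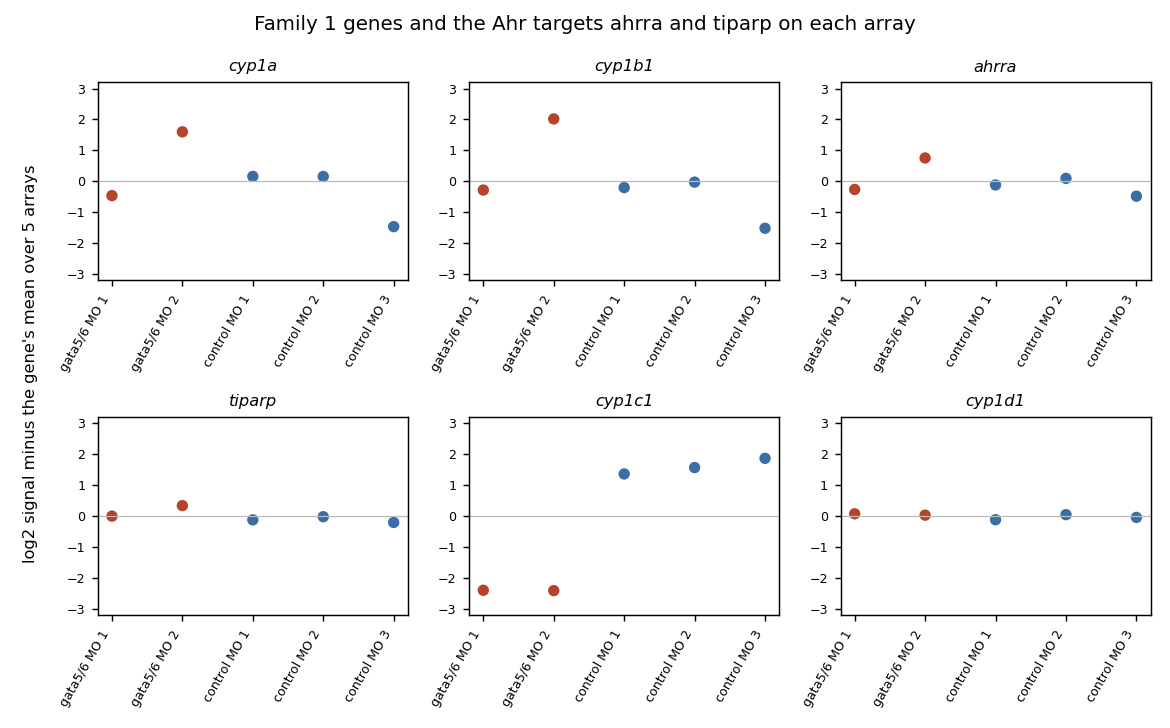
Log2 signal of each gene minus its mean over the 5 arrays (vertical axes, same scale) on the 2 gata5/6 morpholino arrays (red) and the 3 control arrays (blue), for 4 family 1 genes and the Ahr targets ahrra and tiparp. The top row and tiparp have gata5/6 morpholino replicate 2 highest and control replicate 3 lowest, cyp1c1 separates the groups, and cyp1d1 stays within 0.16 in each group. Of the 9 measured genes of the Ahr list, only the 2 shown here have that order, and ahrra was chosen after its values were seen.

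Family 2 is the largest, with enzymes of foreign chemicals, arachidonic acid and other fatty acids. Of 28 genes on the array 19 were compared, and 3 rose, 2 fell and 14 did not pass, with a median change of -0.01. Over all genes 7.84% were higher and 7.17% lower. The gene cyp2ad2, listed in RefSeq also as cyp2j28 and thus related to the mammalian CYP2J fatty acid epoxygenases, had -2.34 and -3.02 in gata5/6 morpholino embryos, against -6.85, -6.61 and -5.90 in controls. It was well above background on both gata5/6 morpholino arrays and on no control array, so the control level is a bound and the signal was at least 7.97-fold higher. The limma adjusted p of 0.00135 belongs to the fitted values and not to that bound. As cyp2ad2 met the detection rule through the gata5/6 morpholino arrays alone, the rule itself favoured a rise. The normexp setting with replaced backgrounds gave a log2 change of 1.08 (adjusted p = 0.000444). Default normexp correction ended the cyp2ad2 call (0.57, limma adjusted p = 0.834). The gene cyp2p6, also named cyp2j25, had -1.92 and -2.28 after gata5/6 morpholino and -3.59, -3.58 and -3.45 in controls, a 2.72-fold rise (log2 change 1.44, SE 0.130, adjusted p = 0.00154). Its other probe gave 1.59, and the normexp setting with replaced backgrounds gave 0.74 (adjusted p = 0.00149). Default normexp correction ended the cyp2p6 call (0.39, limma adjusted p = 0.834).

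The relative cyp2p9, also named cyp2j22, moved the other way, with -3.54 and -3.56 in gata5/6 morpholino embryos against -2.01, -2.33 and -2.63 in controls. All 3 control arrays lay above both others, a 2.34-fold fall (log2 change -1.23, SE 0.183, limma adjusted p = 0.00974). A separate variance for each group ended this call (adjusted p = 0.180), and the normexp setting with replaced backgrounds gave -0.59 (adjusted p = 0.0193). Default normexp correction also ended the cyp2p9 call (-0.90, limma adjusted p = 0.494). The gene cyp2aa9 had 4.41 and 4.35 after gata5/6 morpholino and 5.23, 5.24 and 5.26 in controls, a 1.82-fold fall (log2 change -0.87, SE 0.0801, adjusted p = 0.00166), and its other probe gave -0.52. The gene cyp2aa4 had 2.49 and 2.45 after gata5/6 morpholino and 2.14, 2.16 and 2.04 in controls, a 1.28-fold rise (log2 change 0.36, SE 0.0854, limma adjusted p = 0.0437). Leaving out control replicate 1, 2 or 3 ended this call (changes of 0.32 to 0.38, limma adjusted p of 0.131 to 0.203). Without gata5/6 morpholino replicate 1 the change was 0.34. The cyp2aa4 call was lost under 13 of 19 alternative settings, among them the authors' deposited value table (0.32, limma adjusted p = 0.0542).

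The gene left out for its flagged spot, cyp2aa8, had 2.57 and 0.20 on the gata5/6 morpholino arrays, against 3.89, 3.93 and 3.95 on the control arrays. Both gata5/6 morpholino arrays were lower than every control array, although the 0.20 on replicate 2 comes from the spot marked as non-uniform. When that array alone was dropped for this gene, a setting chosen after seeing the data, the change was -1.36 (SE 0.110, limma adjusted p = 0.00246), a p that rests on the control spread because 1 gata5/6 morpholino array remained. With both arrays it was -2.54 (adjusted p = 0.0498).

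Many family 2 genes lie side by side in the RefSeq annotation (assembly GRCz12tu). Differences between neighbours were not tested. In the run of 11 genes from cyp2n13 to cyp2j20, with no other protein-coding gene between them, 7 were compared, of which 2 rose, 1 fell and 4 did not pass. The risen gene cyp2p6 and the fallen gene cyp2p9 are parted there by cyp2p7 and cyp2p8. The gene cyp2p8 changed by -0.15 (limma adjusted p = 0.423), and cyp2v1, next to cyp2ad2, by -0.01 (adjusted p = 0.978). In the run of 11 genes from cyp2aa12 to cyp2ae1, 7 were compared, and cyp2aa4 rose, cyp2aa9 fell and 5 did not pass. In the cyp2k run, 3 of 8 genes were compared and none passed (limma, with changes of -0.12 to 0.12 and adjusted p of 0.400 to 0.580). Neighbouring P450 genes are close copies, so a probe may also bind the RNA of its neighbour, and values within a run are uncertain for that reason.

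**Figure D4:**
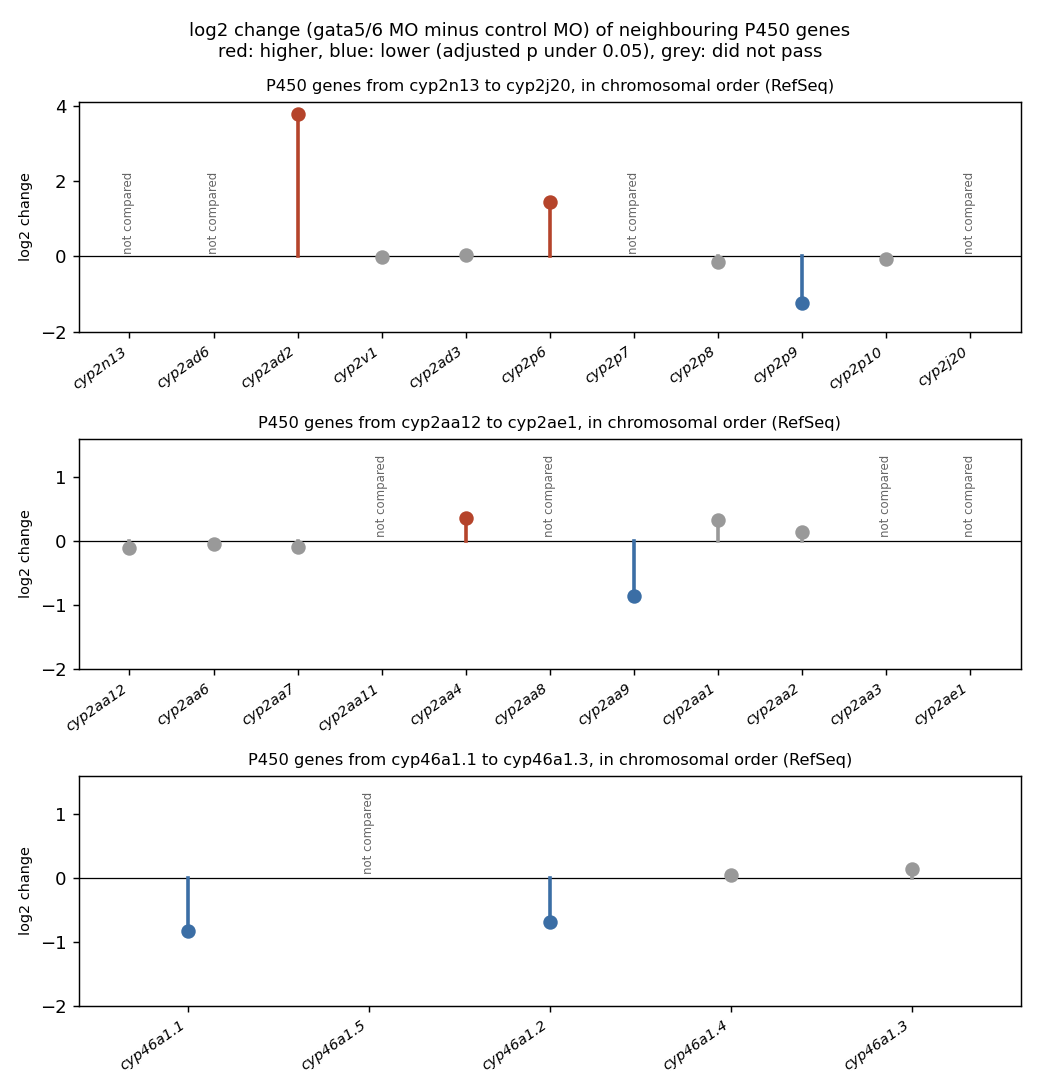
Log2 change (vertical axes) of P450 genes in 3 runs of neighbours, placed in chromosomal order and not to distance. In the top run cyp2ad2 (3.78 as fitted) and cyp2p6 (1.44) are higher while cyp2p9 (-1.23) is lower, in the middle run cyp2aa4 (0.36) and cyp2aa9 (-0.87) part, and in the bottom run cyp46a1.1 (-0.83) and cyp46a1.2 (-0.69) are lower.

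Family 3 enzymes include the main drug-metabolising P450s of the vertebrate liver. Of the 2 compared genes, cyp3c3 rose and cyp3c1 did not pass (-0.06, limma adjusted p = 0.741). The cyp3c3 signal was 0.51 and 0.44 in gata5/6 morpholino embryos, against 0.11, -0.24 and -0.06 in controls, a 1.45-fold difference (log2 change 0.54, SE 0.122, adjusted p = 0.0375). Its other 2 probes gave 0.27 and 1.12. Without control replicate 1, 2 or 3 the call was lost (changes of 0.45 to 0.62, limma adjusted p of 0.0564 to 0.134). Without gata5/6 morpholino replicate 1, among the 9 of 19 alternative settings that lost the call, the change was 0.51. Family 4 enzymes hydroxylate the end of fatty acid chains, and none of its 3 compared genes passed (limma, none at an unadjusted p under 0.05). The changes were 0.17 for cyp4f3, 0.01 for cyp4v2b and -0.29 for cyp4t8.

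Of 6 genes of steroid hormone synthesis on the array, 3 were compared, and 2 rose and 1 did not pass, beside 7.84% of all genes higher. A shift of the class was not tested, and 3 genes are too few to show one. The gene cyp11a1.1 encodes the side-chain cleavage enzyme that turns cholesterol into pregnenolone, and in zebrafish embryos it is known to be transcribed in the yolk syncytial layer, which feeds the embryo. Its log2 signal was 4.75 and 4.68 after gata5/6 morpholino, against 3.57, 3.27 and 3.36 in controls. Both gata5/6 morpholino arrays were thus well above every control array, a 2.49-fold difference (log2 change 1.31, SE 0.114, limma adjusted p = 0.00135), and the other probe gave 1.18.

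The gene cyp17a1, whose enzyme leads pregnenolone toward androgens and cortisol, had -1.46 and -1.60 after gata5/6 morpholino and -1.89, -1.94 and -1.84 in controls. The groups did not overlap, with a 1.28-fold difference (log2 change 0.36, SE 0.0897, limma adjusted p = 0.0493). This call had the highest adjusted p of the 12 and was lost without control replicate 1, 2 or 3 (adjusted p of 0.160 to 0.196), without gata5/6 morpholino replicate 1 (0.0572) and under 10 other settings. The 11-beta-hydroxylase gene cyp11c1, which makes cortisol and the fish androgen, had -2.37 and -2.75 against -2.88, -2.91 and -2.89 in controls (log2 change 0.33, adjusted p = 0.137). The aromatase genes cyp19a1a and cyp19a1b, which make oestrogen, and cyp17a2 were not detected by the rule.

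Of 15 listed steroid, bile acid and vitamin D partners, 9 were measured, and 1 rose and 8 did not pass, beside 7.84% of all genes higher. The gene that rose was nr1h4, which encodes the bile acid receptor FXR, with -4.22 and -4.60 after gata5/6 morpholino and -7.68, -6.45 and -7.79 in controls. All 3 control arrays were below the detection rule, so its signal was at least 2.40-fold higher (limma adjusted p = 0.00839), a call lost with a variance for each group (0.173). It met the rule through the gata5/6 morpholino arrays alone, which favoured a rise. Default normexp correction, whose fit on control replicate 3 included local backgrounds far above their spots, turned its log2 change to -0.057. The cortisol-inactivating dehydrogenase gene hsd11b2 changed by 0.61 (adjusted p = 0.0538), the vitamin D receptor gene vdrb by -0.40 (adjusted p = 0.134) and the steroid reductase gene srd5a2a by 0.36 (adjusted p = 0.143). Of 12 listed redox partners, 10 were measured, and 1 rose, 1 fell and 8 did not pass, near the 7.84% and 7.17% of all genes.

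The redox partner that fell was fdx1b, the ferredoxin gene that supplies electrons to mitochondrial steroid P450s in zebrafish. It had -5.62 and -5.97 after gata5/6 morpholino and -4.85, -4.68 and -4.57 in controls. Both gata5/6 morpholino arrays were below the detection rule, and the signal was at least 1.84-fold higher in controls (limma adjusted p = 0.00591), a call lost with the normexp setting with replaced backgrounds (-0.14, adjusted p = 0.290). It met the detection rule through the control arrays alone, which favoured a fall. In the main fit its direction was opposite to that of cyp11a1.1, and the listed fdx1 and fdxr were not measured. The redox partner that rose was cyb5b, the gene of outer-mitochondrial cytochrome b5, at 1.36 ± 0.15 (SD, n = 2) against 0.62 ± 0.06 (SD, n = 3) in controls (log2 change 0.75, SE 0.101, adjusted p = 0.00673). The heme-binding partner gene pgrmc1 changed by 0.31 (adjusted p = 0.150) and the reductase gene cyb5r3 by 0.28 (adjusted p = 0.190). The P450 reductase gene, named pora in RefSeq and chosen after its values were seen, changed by -0.30 (adjusted p = 0.266).

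Of 10 genes of families 7, 8, 39 and 46 on the array, 5 were compared, and 2 fell and 3 did not pass. Over all genes 7.17% were lower, and a shift of these families was not tested. In mammals the family 46 enzyme hydroxylates cholesterol and clears it from the brain, and zebrafish have a run of 5 copies. The copy cyp46a1.1 had -2.99 and -3.10 in gata5/6 morpholino embryos, against -2.20, -2.21 and -2.23 in controls, a 1.78-fold fall (log2 change -0.83, SE 0.0835, limma adjusted p = 0.00226). Its other compared probe gave -1.04, but that probe met the detection rule through the control arrays alone, which favoured a fall. For cyp46a1.1 the normexp setting with replaced backgrounds gave -0.45, and default normexp correction ended the call (-0.67, limma adjusted p = 0.784). The copy cyp46a1.2 had -2.80 and -3.09 after gata5/6 morpholino and -2.24, -2.23 and -2.31 in controls, a 1.61-fold fall (log2 change -0.69, SE 0.111, adjusted p = 0.0131), or -0.34 with the normexp setting. Leaving out control replicate 1, 2 or 3 ended this call (changes of -0.67 to -0.71, adjusted p of 0.0562 to 0.0658), as did a separate variance for each group (0.0517). Default normexp correction ended the cyp46a1.2 call as well (-0.60, limma adjusted p = 0.834).

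The neighbours cyp46a1.3 and cyp46a1.4 did not pass, with log2 changes of 0.14 (limma adjusted p = 0.282) and 0.05 (adjusted p = 0.931). The difference between copies was not tested, and copies of a run may share probes' signal. The gene cyp7a1, the rate-limiting enzyme of bile acid synthesis, had 0.87 and 0.14 after gata5/6 morpholino and 0.67, 0.39 and 0.84 in controls, with the groups overlapping (log2 change -0.13, adjusted p = 0.751). The family 8 genes and cyp39a1, grouped here under bile acid and sterol breakdown, were not well above background on any array.

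Cholesterol synthesis holds 1 P450 step. The gene cyp51, whose enzyme removes a methyl group from lanosterol, had -0.69 and -0.47 in gata5/6 morpholino embryos, against -0.70, -0.68 and -0.64 in controls (log2 change 0.09, SE 0.0984, limma adjusted p = 0.563). Its sign turned without gata5/6 morpholino replicate 2 (-0.02). Of 19 listed genes of the pathway 16 were measured, with 1 higher, 2 lower, 13 not passing and a median of 0.05. Beside these counts, 7.84% of all genes were higher and 7.17% lower. The farnesyl diphosphate synthase gene fdps had 1.30 and 1.20 after gata5/6 morpholino and 2.92, 2.77 and 2.89 in controls, a 3.05-fold fall (log2 change -1.61, SE 0.0920, adjusted p = 0.000323). The gene of the last reductase, dhcr7, had -0.12 and 0.19 against 1.49, 1.30 and 1.49 in controls, a 2.62-fold fall (-1.39, SE 0.128, adjusted p = 0.00166). The squalene epoxidase gene sqlea rose by 0.47 (adjusted p = 0.0176), a call lost without control replicate 1, 2 or 3 (0.44 to 0.50), and the mevalonate kinase gene mvk changed by 0.38 (adjusted p = 0.0665).

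Family 26 clears retinoic acid, and its 3 genes were all compared. The gene cyp26a1, whose RNA is itself raised by retinoic acid, had 3.12 and 2.99 after gata5/6 morpholino and 3.49, 3.47 and 3.39 in controls. Both gata5/6 morpholino arrays were lower, a 1.31-fold fall (log2 change -0.39, SE 0.0896, limma adjusted p = 0.0377), and the other probe gave -0.36. Without control replicate 1, 2 or 3 this call did not hold (changes of -0.38 to -0.42, adjusted p of 0.133 to 0.173). The cyp26a1 call was lost under 10 of 19 alternative settings. The hindbrain gene cyp26c1 leaned the other way, with 2.93 and 3.12 against 2.71, 2.74 and 2.73 in controls (log2 change 0.30, adjusted p = 0.0877), and it did not pass. Leaving out gata5/6 morpholino replicate 1 (0.39, adjusted p = 0.0212) or replicate 2 (0.21, adjusted p = 0.0455) put it past the threshold, on p-values that rest on the control spread. The other probe of cyp26c1 gave 0.17, with the groups overlapping, and the mean over its probes changed by 0.23 (limma adjusted p = 0.539). The gene cyp26b1 had 1.06 and 1.22 against 1.30, 1.21 and 1.28 in controls, with overlap (log2 change -0.12, adjusted p = 0.402).

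Of 18 listed genes that make, carry or sense retinoic acid, 15 were measured, with 1 higher and 14 not passing and a median of -0.10. Beside these counts, 7.84% of all genes were higher and 7.17% lower. The gene that rose was the retinaldehyde dehydrogenase gene aldh1a3, by a fitted 1.64-fold after gata5/6 morpholino (limma adjusted p = 0.0211). It was below the detection rule on all control arrays and met that rule through the gata5/6 morpholino arrays alone, which favoured a rise. Leaving out control replicate 2 or 3 (changes of 0.72 and 0.61) or gata5/6 morpholino replicate 1 (0.76) ended that call, as did a separate variance for each group (adjusted p = 0.239). The log2 change of aldh1a3 was 0.19 (adjusted p = 0.259) with the normexp setting with replaced backgrounds and turned to -0.36 with default normexp correction. Its control signals lay above the lowest detected signals, so here the bound equals the fitted fold. The main embryonic synthesis gene aldh1a2, chosen after its values were seen, had 2.16 and 2.23 after gata5/6 morpholino and 2.17, 2.16 and 2.12 in controls (log2 change 0.04, adjusted p = 0.735). The retinol carrier gene rbp4 changed by -0.91 (adjusted p = 0.0649), the receptor gene rarga by -0.37 (adjusted p = 0.0974) and the retinaldehyde reductase gene dhrs3a by -0.28 (adjusted p = 0.123).

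Vitamin D and related genes and the orphan family did not pass. The gene cyp24a1, whose enzyme inactivates vitamin D, had -0.98 and -0.98 after gata5/6 morpholino and -0.59, -0.72 and -0.67 in controls, with no overlap (log2 change -0.32, SE 0.0846, limma adjusted p = 0.0568). The retinol desaturase gene cyp27c1 had 0.10 ± 0.05 (SD, n = 2) against 0.15 ± 0.05 (SD, n = 3) in controls (adjusted p = 0.684). The orphan cyp20a1, whose substrate is not settled, had 3.12 and 2.93 against 3.02, 3.00 and 2.94 in controls (log2 change 0.03, adjusted p = 0.832).

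Probes of a gene mostly went together. Of the 25 P450 genes with several compared probes, all probes had 1 sign in 21, and no gene had probes that passed in opposite directions. These include probes that met the detection rule through 1 group alone, as for cyp1c1 and cyp46a1.1, which favoured their direction. Of the 22 genes outside the comparison, 13 had no probe well above background on any array, and 9, cyp2aa8 and cyp1c2 among them, were above it on some array.

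Marker genes of other tissues were read beside the P450 genes. Of 5 measured genes of liver-enriched secreted proteins, 4 rose and 1 did not pass, with a mean log2 level of -0.63 to -0.54 on the gata5/6 morpholino arrays against -2.79 to -2.58 on the control arrays. That difference in means comes mostly from ahsg1 and leg1.1, with changes of 4.12 and 4.26, beside 0.48 to 0.81 for the other measured genes of the list. Of the 4 calls, serpina1 was lost without control replicate 1, 2 or 3 (adjusted p of 0.0958 to 0.141), and fabp10a with replaced backgrounds (0.21, adjusted p = 0.128), its sign turning with default normexp (-0.25). Of 5 measured genes of the yolk syncytial layer, where cyp11a1.1 is known to be transcribed, hnf4a and apoa2 rose, apobb.1 fell and 2 did not pass, with mean levels of 3.86 to 3.89 against 3.76 to 3.78, and its defining factor gene mxtx2 was not measured. All 3 of these calls were lost without control replicate 1, 2 or 3 (adjusted p of 0.0637 to 0.153). The hnf4a change was 0.27 (limma adjusted p = 0.106) with replaced backgrounds and -0.078 with default normexp. None of 5 somite muscle and 6 neural genes passed (limma, with none of the muscle genes and none of the neural genes at an unadjusted p under 0.05). Endothelial genes, at -0.84 to -0.74 against -1.34 to -1.10, had 2 of 5 risen, and epidermal genes, at 5.33 to 5.35 against 5.39 to 5.43, had 1 of 5 fallen. The endothelial mean and count include cdh5, which was below the detection rule in all controls. It met the rule through the gata5/6 morpholino arrays alone, which favoured a rise. Its fitted log2 change was 1.33, beside 0.02 to 0.52 for the other measured endothelial genes. The cdh5 change was 0.23 (limma adjusted p = 0.162) with replaced backgrounds and -0.29 with default normexp. The calls of the endothelial etsrp (adjusted p of 0.0633 to 0.0817) and the epidermal tp63 (0.152 to 0.178) were lost without control replicate 1, 2 or 3. Of 5 measured endoderm genes hhex rose and prox1a fell, of 5 blood genes hbae1.1 rose and spi1b fell, and of 5 pronephros genes cdh17 rose and lhx1a, wt1a and slc4a4a fell. The calls of hhex, prox1a and hbae1.1 were lost without control replicate 1, 2 or 3 (adjusted p of 0.0504 to 0.0673), that of lhx1a without control replicate 1 or 2, and that of slc4a4a without control replicate 1 or 3. The part of these shifts in the P450 changes was not tested.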

How the data were processed

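Spots were quantified by Agilent Feature Extraction 10.7.3.1, per the file headers (10.7.1.1 per the submitters' processing notes), and the deposited processed intensity was background-subtracted and detrended within each array, not scaled between arrays. The authors' deposited value table holds log2 values (median 6.09 on each array). No source used here describes its processing, and setting it against the scanner signals gave its scale. Control spots and 52 probes with outlier spots were left out, log2 signals were reduced by the 75th percentile of each array (506.2 to 574.4 units), and probes well above background on every array of a group were kept (30618 of 43603). Accessions were matched without versions to RefSeq symbols (25598 probes), and the brightest probe stood for a gene. Probes without a symbol are not covered. Groups were fitted with limma 3.58.1 in R 4.3.3 (no covariates, 3 residual degrees of freedom). A run on simulated data gave both groups the same spread, so it cannot show how the unequal spread of these groups affects the calls. Where a group was below background throughout, folds are bounds against the higher of the probe's own signal and the lowest signal well above background on each array. Such genes were admitted through the other group alone, so the filter favoured their direction. Their p-values come from the fitted values and not from the bounds.

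Alternatives changed the background correction, scaling, filter, choice of probe, variance model, replicate block and outlier spots, or left out each array in turn.

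Named were all P450 genes that passed, 8 fixed members, and the 4 smallest p-values of each pathway list, besides family members given as values. The pathway genes ahrra, nqo1, pora and aldh1a2 were added after their values were seen. The members and lists were chosen with earlier results of these data known.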

Additional observations from a re-analysis of the deposited data

Results flagged for a closer look

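Outside the comparison, 7 probes of 6 P450 genes were well above background on at least 1 gata5/6 morpholino array and on no control array, which drew attention to them. The reverse also occurred, with probes of cyp1c2, cyp2p7, cyp3c4, cyp4f3 and cyp4v2b well above background on at least 1 control array and on no gata5/6 morpholino array. The share over all probes was not counted, so no direction is read from these probes. On gata5/6 morpholino replicate 1, a cyp46a1.5 probe read -1.09 against at most -6.22 in controls, on a spot marked as an outlier, and a cyp19a1b probe read -2.41 against at most -7.79. The same 2 probes read -7.58 and -7.82 on gata5/6 morpholino replicate 2, so each signal stands on 1 array. On replicate 1 a cyp2x9 probe read -5.11, a cyp19a1a probe -5.42 and the cyp2ad6 probe -5.47. On gata5/6 morpholino replicate 2, the array with the highest cyp1a signal, 2 further cyp1b1 probes read -4.71 and -5.07.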

How the results depend on the processing

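The count of all genes that passed, 1620, was 42 with default or maximum-likelihood normexp correction and 547 with a variance for each group, and 685 to 5280 without 1 array. P450 genes passing as higher, 6 as reported, numbered 0 with default or maximum-likelihood normexp (limma, 2 at an unadjusted p under 0.05), 3 with a variance for each group, 3 with every probe fitted, and 3 to 9 without 1 array. P450 genes passing as lower, also 6, numbered 1 with default or maximum-likelihood normexp, 3 with a variance for each group, and 4 to 7 without 1 array. Normexp was fitted on median spot signals, and its default and maximum-likelihood fits on control replicate 3 included local backgrounds far above their spots. In a further setting, chosen after seeing the data, every local background flagged as outlying on any array was replaced by its array's median before the fit. The counts were then 1508, 5 and 6. The cyp1c1 call held under all 19 alternatives, that of cyp2ad2 under 16 of 18, and those of cyp2p6, cyp2aa9, cyp11a1.1 and cyp46a1.1 under 17 of 19. The exceptions for these genes were the default and maximum-likelihood normexp fits. The cyp1a change ran from -0.079 (without gata5/6 morpholino replicate 2) to 1.98 when 1 array was left out. That of cyp51 was -0.035 with default and -0.036 with maximum-likelihood normexp and ran from -0.019 (without gata5/6 morpholino replicate 2) to 0.20 when 1 array was left out, and the cause was not tested. The groups share 2 replicate numbers, whose deviations correlated at 0.123 and 0.200, which does not establish a pairing. With the replicate block the counts were 1784 in all, 5 P450 genes higher and 5 lower, and cyp1b1 passed (0.98, limma adjusted p = 0.000127). That fit leaves fewer residual degrees of freedom than the 3 of the main fit, so its p-values lean on the spread of other genes. Control replicate 3 has no partner there, and the cyp1b1 change equals that without this array, where it did not pass (0.98, limma adjusted p = 0.490). The block is among the 19 alternatives counted above. Dim signals limit the bounds given for cyp2ad2, nr1h4, fdx1b and aldh1a3.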

Other observations

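Genes that varied widely within both groups were counted after the values of cyp1a and cyp1b1 had been seen. A range of over 1 on the log2 scale in both groups was found for 9 of the 10792 genes, and these P450 genes were 2 of them. Only for cyp1a and cyp1b1 among the 9 was gata5/6 morpholino replicate 2 highest and control replicate 3 lowest. The others were btg4, gorasp1a, h3f3d, pdxkb, phactr3b, rrad and syt1b, of which rrad ranged by 1.95 in gata5/6 morpholino embryos and 1.58 in controls, and syt1b by 1.75 and 1.46.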
